A study of Mus musculus with 18 samples.

Results

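Gene expression in livers labelled HPNWT was set against expression in livers labelled EGFP at day 1, with 3 arrays in each group, all from mice transduced with an adeno-associated virus (AAV). The series has 18 arrays in all, since both groups were also taken at day 2 and day 4, again 3 arrays each. The 6 arrays of day 1 were chosen by their titles, and all 40161 transcript clusters with a gene symbol were analysed. The animals were adult male mice, and all groups received AAV. The series' design text speaks of hepsin overexpression specific to the liver. The labels spell out neither HPNWT nor what starts the count of days. Each animal gave 1 array per the labels, so the p-values rest on the spread between animals. The sources used here do not give the strain, the age in weeks, the vector dose or the vector's promoter. EGFP is a green fluorescent protein used as the control cargo, and the host livers in both groups keep their own Hpn gene.

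Hepsin is a serine protease anchored in the membrane of hepatocytes, where it can cleave growth factor precursors and receptors at the cell surface. The series title places it upstream of the epidermal growth factor receptor (EGFR) in adult liver regeneration. In hepatocytes, EGFR signalling through the ERK kinases switches on immediate early genes such as Egr1 and Fos. Hepatocytes also secrete most plasma proteins, which enter the endoplasmic reticulum (ER) through the translocon, and they make cholesterol under control of the transcription factor SREBP-2.

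At day 1 the livers labelled HPNWT had higher expression of cholesterol synthesis enzymes, of the machinery that brings proteins into the ER and folds them, of most tubulins, of the keratins Krt8 and Krt18, and of a few immediate early genes. Enzymes of amino acid breakdown were lower. In the limma fit over the 18 arrays 1148 of 36230 genes were called higher (3.17%) and 555 lower (1.53%), together 4.7%, at a Benjamini-Hochberg adjusted p under 0.05 over all clusters. The calls included 91 rises (0.251%) and 54 falls (0.149%) with a log2 difference of at least 1. These were counted whether or not a group mean lay under the background defined below. Of all 40161 clusters 1843 were called (4.59%), 1194 higher (2.97%) and 649 lower (1.62%). The median difference over all genes was 0.01 log2. A gene is termed stably called below if it was called with no overlap between its 3 HPNWT and 3 EGFP arrays of day 1, kept its call when each of the 18 arrays was left out in turn, and lay above background in at least 1 of the groups. That held for 342 rises (0.944%) and 113 falls (0.312%). Background is the 95th percentile of 5222 negative-control probe sets, 6.16 on the log2 scale of the arrays, and no fold is given where a group mean lies under it. Among the 8535 genes with a mean above it, 744 (8.72%) were called higher and 358 (4.19%) lower.

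The 6 arrays were alike, with correlations between 0.988 and 0.997. Their negative-control medians were 3.03, 2.93 and 3.14 in HPNWT arrays and 3.09, 3.25 and 3.27 in EGFP arrays, a mean difference of −0.17. HPNWT day 1 replicate 3 lay nearest the EGFP group for 248 of the 342 stable rises, and EGFP day 1 replicate 3 lay nearest the HPNWT group for 186 of them. Hpn itself was not detectably higher. Its signal was 8.47, 8.10 and 8.20 in HPNWT livers and 8.25, 8.29 and 8.42 in EGFP livers, a difference of −0.06 log2 (SE 0.12, limma adjusted p = 0.894) whose sign turned in a fit that took the negative-control median into account. The sources used here do not give what part of the transgene the Hpn probes cover, so the directions rest on the labels alone.

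Few markers of cell types were called. All 14 hepatocyte markers lay above background and 1, Apoa1, was called, higher (0.30). Albumin (Alb) read 12.47, 12.79 and 12.84 in HPNWT livers against 12.73, 12.76 and 12.80 in EGFP livers. None of 20 Kupffer cell and macrophage markers was called. Their median difference was −0.21, and 18 of 20 were below 0. Their summed level, as log2, was 11.18, 11.26 and 11.26 in HPNWT livers and 11.24, 11.51 and 11.40 in EGFP livers. By this level, to which bright markers add most, the groups overlapped through EGFP day 1 replicate 1. By the mean of their log2 signals the groups lay apart, with every HPNWT array below every EGFP array. The markers were not tested as a whole. With array weights, a fit that called 8116 of all clusters, 7 of these 20 were called lower and 1 higher, and 3 stellate and 1 endothelial marker lower. None of 18 sinusoidal endothelial, 15 stellate, 12 cholangiocyte and 8 blood markers was called either. The 13 neutrophil markers and the 17 measured T, B and NK cell markers all lay under background, and 1 of the 17, Cd4, was called, lower (−0.45). Apoa1 and Cd4 were chosen after their values were seen. In whole liver a change in the number of cells of a type and a change in RNA per cell cannot be told apart.

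The stable rises were ordered by their difference in signal, an order that is not reliable for genes with a group under background. The first was Akr1c18, a hydroxysteroid dehydrogenase that inactivates progesterone. It read 7.52, 8.08 and 6.62 in HPNWT livers and 3.87, 3.90 and 3.89 in EGFP livers, where it lay under background. The difference was 3.52 log2 (SE 0.24, limma adjusted p = 4.27e-06). The authors' deposited table gives averages of 10.88 in HPNWT and 5.09 in control livers on its own, wider log2 scale, with a fold change of 55.4. Egr1, an immediate early transcription factor, had the largest difference among the stable rises with both group means above background. It read 9.76, 9.48 and 9.68 in HPNWT livers and 6.66, 7.10 and 6.97 in EGFP livers, 6.64-fold higher (2.73 log2, SE 0.26, limma adjusted p = 2.73e-05).

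The next rises included genes of lipid and vitamin A handling. Angptl8, a secreted inhibitor of lipoprotein lipase, read 10.85, 10.66 and 9.26 in HPNWT livers and 7.46, 8.57 and 6.84 in EGFP livers, with the smallest gap between an HPNWT and an EGFP array at HPNWT replicate 3 and EGFP replicate 2. Its difference of 2.63 had an SE of 0.52. Abcd2, a peroxisomal transporter of very-long-chain acyl-CoA, read 8.33, 7.80 and 7.17 in HPNWT livers and 5.11, 5.28 and 5.78 in EGFP livers. Bco1, the enzyme that splits beta-carotene into retinal, read 7.68, 7.77 and 7.09 in HPNWT livers against 5.56, 5.87 and 5.68 in EGFP livers. In both genes the EGFP arrays lay under background. Tnfrsf12a, the receptor for the cytokine TWEAK, was even within each group, at 7.93, 7.92 and 7.74 in HPNWT and 5.77, 5.85 and 5.72 in EGFP livers. Its EGFP arrays lay under background too. Also among the 14 largest rises were Ifi27l2b (2.52 log2), Cyp2b9 (2.15), the basement membrane gene Nid1 (2.11), Tstd1 (1.85), Lss (1.74), Fkbp11 (1.70) and Hmgcs1 (1.62). In 11 of the 14, HPNWT replicate 3 was the HPNWT array nearest the EGFP livers.

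Etnppl, which degrades phosphoethanolamine, came first among the stable falls by the same order. It read 5.88, 5.79 and 6.18 in HPNWT livers, about at background, and 7.91, 8.66 and 8.999 in EGFP livers (−2.57 log2, SE 0.33, limma adjusted p = 0.000331). Enzymes of mitochondria and peroxisomes were among the other falls. Ppm1k, the phosphatase that activates branched-chain keto acid dehydrogenase, read 6.14, 6.21 and 6.12 in HPNWT livers against 7.31, 7.58 and 7.81 in EGFP livers. Adck3 (now Coq8a), an atypical kinase of coenzyme Q synthesis, read 7.03, 6.98 and 7.66 in HPNWT livers against 8.14, 8.70 and 8.72 in EGFP livers, 2.46-fold lower. Nudt7, a peroxisomal coenzyme A hydrolase, was 2.20-fold lower. Afmid, which forms kynurenine, read 7.73, 7.22 and 7.54 in HPNWT livers against 8.51, 8.47 and 8.86 in EGFP livers, 2.17-fold lower. Igfals, the circulating partner of the insulin-like growth factors, was 2.46-fold lower, and Slc1a2, a glutamate transporter of pericentral hepatocytes, 2.06-fold lower. The other falls of this group were Glt1d1 (−1.73 log2), Akr1c19 (−1.59), Slc17a2 (−1.41), Prodh (−1.30), Ggt6 (−1.26), the bile acid synthesis enzyme Akr1d1 (−1.13) and Scnn1a, a sodium channel subunit (−1.11).

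**Figure D1:**
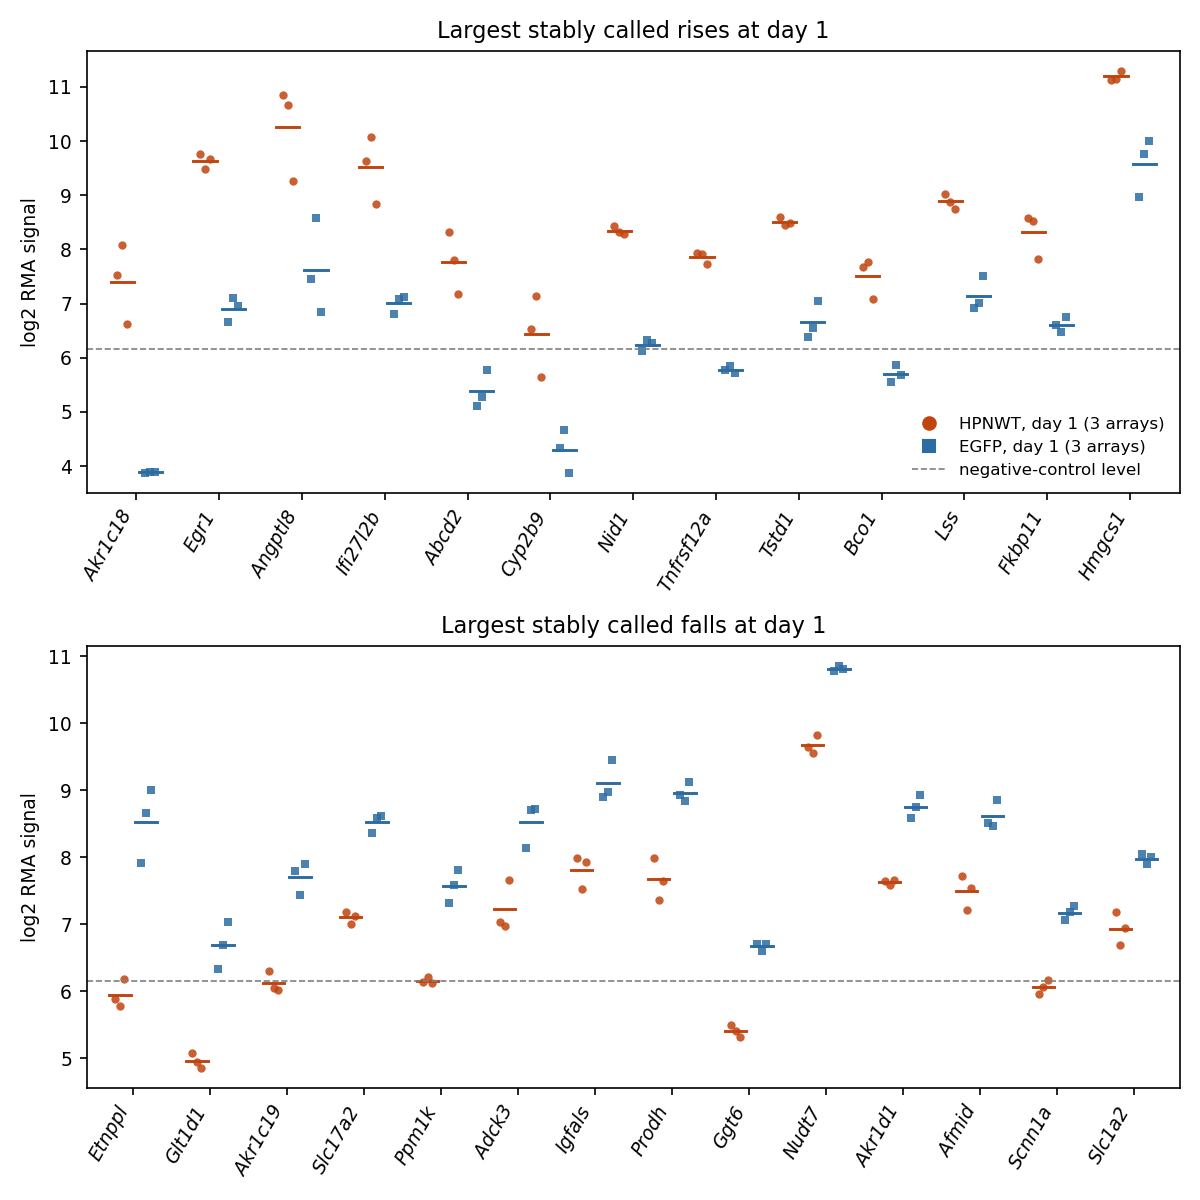
Log2 RMA signal (vertical axis) of 13 of the 14 largest stably called rises (top) and the 14 largest falls (bottom) at day 1, HPNWT arrays as circles on the left and EGFP arrays as squares on the right of each gene, with bars at group means. The dashed line is the negative-control level of 6.16. For each gene the 3 arrays of a group lie on 1 side of the 3 of the other, which a stable call requires.

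Cholesterol synthesis had the highest median of the 52 gene lists at day 1. Of its 19 measured enzymes 17 were called higher and none lower, 14 of them stably, with a median difference of 1.08 log2. Members are given in pathway order. Acat2, the cytosolic thiolase of the first step, was not called (0.15, limma adjusted p = 0.489). Hmgcs1, which makes HMG-CoA, read 11.13, 11.15 and 11.30 in HPNWT livers and 8.96, 9.77 and 10.002 in EGFP livers, 3.07-fold higher. The mevalonate steps followed the same direction, with Mvk at 1.38 (SE 0.15), Pmvk at 0.76 and Mvd at 1.32. The isoprenoid steps had Idi1 at 1.08, Fdps at 1.11 and the squalene synthase Fdft1 at 0.86.

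Past squalene, Sqle, the squalene epoxidase, read 9.30, 8.97 and 8.92 in HPNWT livers and 7.23, 7.62 and 7.89 in EGFP livers (1.48 log2, SE 0.27). Lss, which closes the sterol rings, read 9.03, 8.88 and 8.75 in HPNWT livers and 6.93, 7.004 and 7.51 in EGFP livers, 3.34-fold higher (SE 0.20 log2, limma adjusted p = 0.000129). The demethylation steps had Cyp51 at 1.16, Msmo1 at 1.01, Nsdhl at 0.95 and Hsd17b7 at 0.98. Ebp, the sterol isomerase, was not called (0.11, limma adjusted p = 0.767). Sc5d was at 0.48. Dhcr7 read 7.998, 7.92 and 7.75 in HPNWT livers and 6.55, 6.67 and 6.65 in EGFP livers (1.26 log2, SE 0.11, limma adjusted p = 1.51e-05), the smallest p of the list. EGFP day 1 replicate 3 was the EGFP array nearest the HPNWT livers for 15 of the 17 called enzymes, and between 14 and 17 were called with any 1 array left out. The calls of Sc5d, Pmvk and Idi1 were not stable. Mvd did not pass in the fit on the 6 arrays of day 1 (limma adjusted p = 0.0536).

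**Figure D2:**
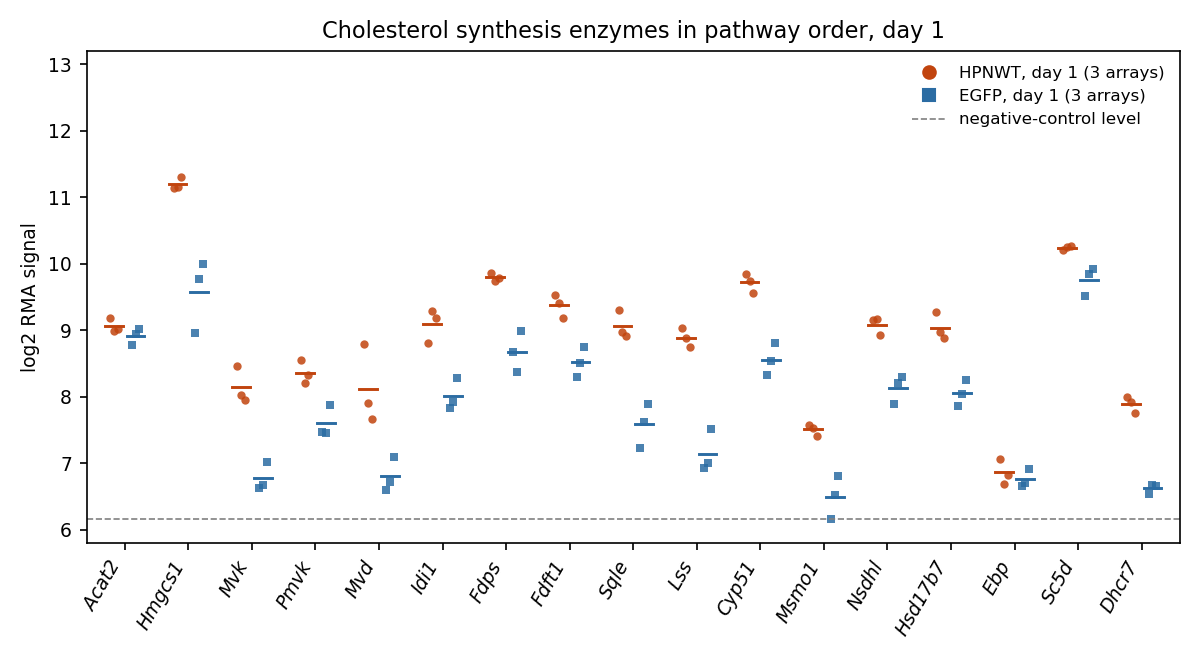
Log2 RMA signal of 17 of the 19 measured cholesterol synthesis enzymes at day 1, in pathway order from left to right, HPNWT arrays as circles on the left and EGFP arrays as squares on the right, with bars at group means. Among those drawn, the groups overlap for Acat2 and Ebp and are apart for the other 15.

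Of 20 measured genes that sense and move sterols, 5 were called higher and none lower, and the median was 0.26. Scarb1, the HDL receptor, read 9.34, 9.27 and 9.42 in HPNWT livers and 8.43, 8.81 and 8.70 in EGFP livers (0.70 log2, SE 0.11). Abca1, the exporter that loads HDL, read 9.60, 9.11 and 9.52 in HPNWT livers and 8.59, 8.56 and 8.59 in EGFP livers (0.83 log2, SE 0.12). Srebf2, which encodes SREBP-2, was called at 0.57 (limma adjusted p = 0.0159), but lost the call without HPNWT day 1 replicate 1 (0.0879) and without the first (0.0621) or second (0.0518) EGFP array of day 1. Without EGFP day 1 replicate 1 only 2 of the 20 were called. Fasn, the fatty acid synthase, was 2.08-fold higher (1.06 log2, SE 0.25, limma adjusted p = 0.0233), but was not called without HPNWT day 1 replicate 1 (0.131) or 2 (0.0626), or without EGFP day 1 replicate 2 (0.0908) or 3 (0.0795). Of 24 fatty acid synthesis genes 2 were called higher and 1 lower, 1 in all without HPNWT day 1 replicate 1 and 5 without replicate 3. These shares were near those of all genes above background, 8.72% called higher and 4.19% lower. The gene called lower was Mlxipl, which encodes the carbohydrate-sensing factor ChREBP (−0.82).

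The sterol regulatory element, spelled TCACNCCAC on either strand, was found in the promoter window of 1 of 14 cholesterol synthesis genes that have one in the RefSeq table (GRCm38.p6, 250 bases before to 50 after the start). It was found in 1.44% of all 27025 genes. The window of Hmgcs1, which holds the match, is shown with the match in capitals. It lies on the plus strand at chr13:119690101-119690400.
Hmgcs1: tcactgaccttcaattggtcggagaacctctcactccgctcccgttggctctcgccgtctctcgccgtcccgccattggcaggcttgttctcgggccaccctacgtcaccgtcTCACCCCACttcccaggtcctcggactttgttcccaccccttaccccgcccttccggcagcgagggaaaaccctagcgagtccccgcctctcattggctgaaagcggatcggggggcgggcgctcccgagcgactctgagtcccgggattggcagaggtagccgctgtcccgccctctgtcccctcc

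Genes of the machinery that carries new proteins into the ER were higher. Of 30 measured genes for the translocon, its targeting particle and signal peptide processing, 22 were called higher and none lower, 15 of them stably, with a median of 0.54 log2. The subgroups below were formed by complex after the values were seen. Among the 8 genes of the signal recognition particle and its receptor, which bring ribosomes to the ER, 7 were called. Srp54a, the subunit that binds the signal peptide, read 8.95, 9.18 and 8.96 in HPNWT livers and 8.09, 8.27 and 8.47 in EGFP livers (0.75 log2, SE 0.10, limma adjusted p = 0.000292). Srp9 read 6.87, 6.80 and 6.65 in HPNWT livers and 6.26, 6.25 and 6.25 in EGFP livers (0.52 log2, SE 0.07).

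Of 11 genes of the translocon channel and its associated proteins 7 were called. Ssr1, the alpha subunit of the translocon-associated complex, read 8.61, 8.74 and 8.55 in HPNWT livers and 7.64, 7.76 and 7.93 in EGFP livers, 1.81-fold higher (0.86 log2, SE 0.08, limma adjusted p = 2.74e-05). The channel subunit Sec61a1 (0.61 log2) was among the called, while the accessory subunits Sec62 (−0.09) and Sec63 (0.01) were not. These 3 were chosen after their values were seen. All 6 oligosaccharyltransferase genes, whose products attach N-glycans, were above 0 and 5 were called. Ddost read 10.24, 10.16 and 9.92 in HPNWT livers and 9.33, 9.24 and 9.49 in EGFP livers, and Rpn1 read 10.53, 10.39 and 10.26 in HPNWT livers and 9.61, 9.46 and 9.76 in EGFP livers. Their differences were 0.75 and 0.78 (SE 0.10 each). Ostc read 9.46, 9.30 and 8.97 in HPNWT livers and 8.10, 8.21 and 8.45 in EGFP livers (0.99 log2, SE 0.13). Of 5 signal peptidase genes 3 were called. Between 18 and 25 of the 30 were called with any 1 array left out, and 16 in the fit on the 6 arrays of day 1.

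ER chaperones and unfolded protein response genes were called in 15 of 33 cases, all higher, 10 of them stably, with a median of 0.39. Fkbp11, a prolyl isomerase of the ER, had the largest difference. It read 8.58, 8.53 and 7.83 in HPNWT livers and 6.601, 6.48 and 6.75 in EGFP livers, 3.25-fold higher (1.70 log2, SE 0.18, limma adjusted p = 4.78e-05). Pdia6, a disulfide isomerase, read 10.67, 10.60 and 10.60 in HPNWT livers and 9.97, 9.77 and 9.96 in EGFP livers (0.72 log2, SE 0.08, limma adjusted p = 8e-05). P4hb, the most studied disulfide isomerase, was at 0.41 (SE 0.06), Ppib, a cyclophilin, at 0.55 (SE 0.09), and the co-chaperones Dnajb11 and Hyou1 at 0.73 and 0.69 (SE 0.11 each). Hspa5, the central ER chaperone BiP, read 10.32, 10.43 and 10.47 in HPNWT livers and 9.85, 9.90 and 10.27 in EGFP livers (0.40 log2, SE 0.10, limma adjusted p = 0.038). It kept its call in 11 of the 18 fits with an array left out, with a highest limma adjusted p of 0.165. The lectin chaperones Canx (0.04) and Calr (0.28) were not called, and were chosen after their values were seen. The count of 15 was 10 without HPNWT day 1 replicate 1 and 8 in the fit on the 6 arrays of day 1.

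**Figure D3:**
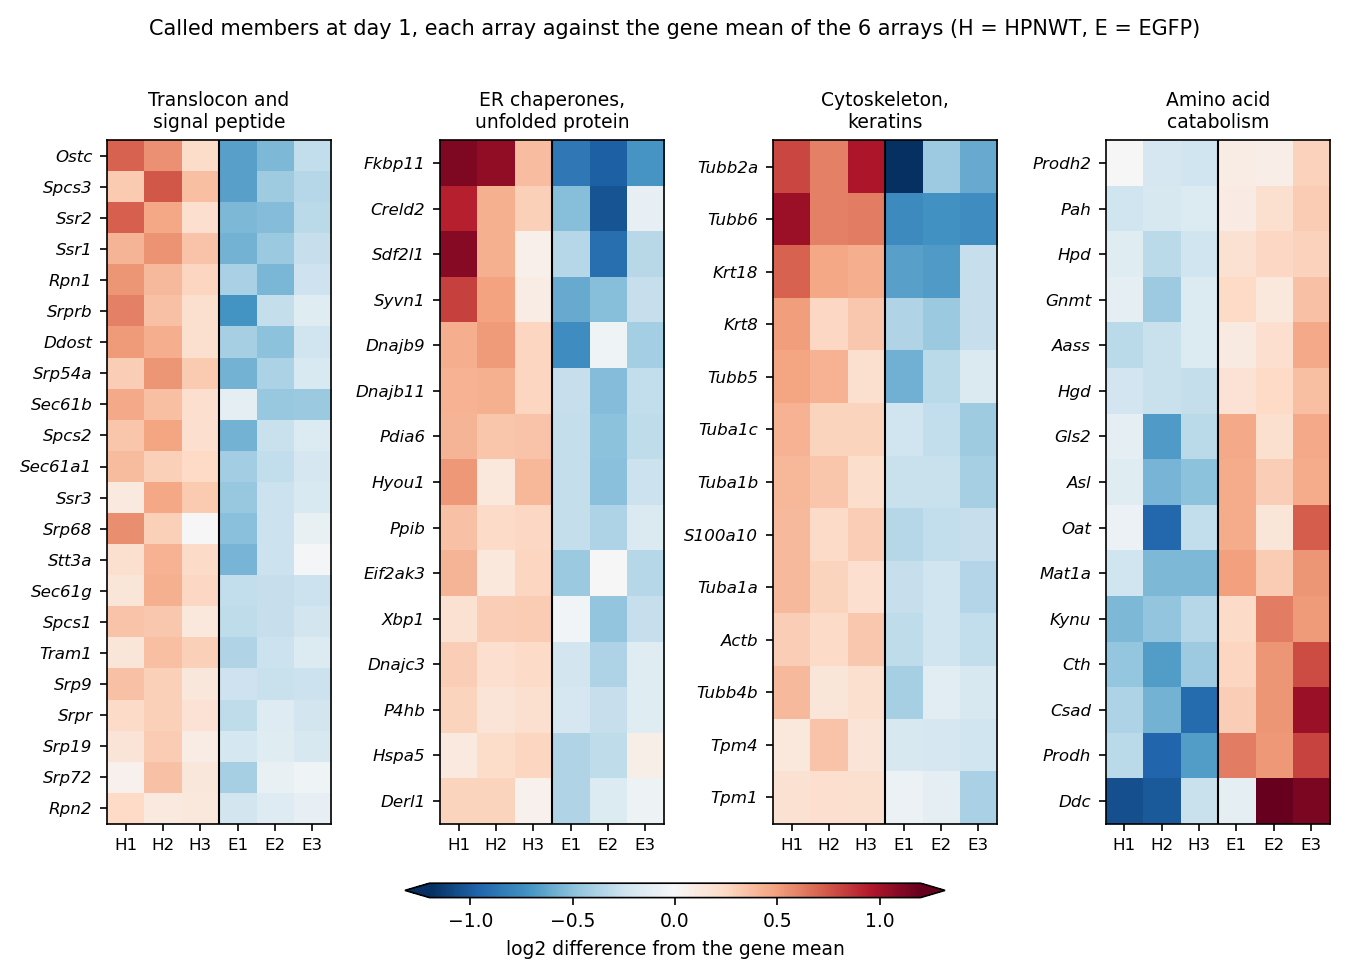
Heat maps of the called members of 4 gene lists, each row a gene and each column an array of day 1 (H, HPNWT replicates 1 to 3, left of the line; E, EGFP replicates 1 to 3, right of it). Colour is the log2 signal minus the gene's mean over the 6 arrays, with values past 1.2 in either direction drawn at the end of the scale. The first 3 lists are red on the left and the amino acid list is blue on the left.

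The ER stress element, CCAAT and CCACG with 9 bases between them, on either strand, was found in the promoter window of 9 of 28 genes of this list with a window in the RefSeq table (32.1%), and in 5 of the 13 among them that were called higher (38.5%). Of all 27025 genes 37 held it (0.137%), and of 22 translocon genes none did. A match describes letters only. The windows of 3 stably called genes are shown because they share the motif, which is in capitals. All lie on the plus strand of GRCm38.p6. Pdia6 is at chr12:17266339-17266638. Dnajc3, a co-chaperone that also restrains the kinase PERK, is at chr14:118937682-118937981. Syvn1, the ubiquitin ligase of ER-associated degradation, is at chr19:6046326-6046625. Dnajc3 and Syvn1 were chosen after their values were seen, with differences of 0.49 (SE 0.08) and 0.92 (SE 0.17).
Pdia6: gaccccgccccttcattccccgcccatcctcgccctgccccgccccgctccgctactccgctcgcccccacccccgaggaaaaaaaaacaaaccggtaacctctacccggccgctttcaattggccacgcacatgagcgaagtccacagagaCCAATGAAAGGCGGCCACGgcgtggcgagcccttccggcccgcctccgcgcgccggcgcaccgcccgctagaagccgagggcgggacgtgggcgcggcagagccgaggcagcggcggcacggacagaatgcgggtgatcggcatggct
Dnajc3: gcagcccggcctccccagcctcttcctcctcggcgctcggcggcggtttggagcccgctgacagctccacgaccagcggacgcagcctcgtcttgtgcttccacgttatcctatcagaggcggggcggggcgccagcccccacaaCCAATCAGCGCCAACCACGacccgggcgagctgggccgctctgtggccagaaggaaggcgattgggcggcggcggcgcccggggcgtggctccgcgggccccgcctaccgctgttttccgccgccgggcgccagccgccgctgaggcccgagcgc
Syvn1: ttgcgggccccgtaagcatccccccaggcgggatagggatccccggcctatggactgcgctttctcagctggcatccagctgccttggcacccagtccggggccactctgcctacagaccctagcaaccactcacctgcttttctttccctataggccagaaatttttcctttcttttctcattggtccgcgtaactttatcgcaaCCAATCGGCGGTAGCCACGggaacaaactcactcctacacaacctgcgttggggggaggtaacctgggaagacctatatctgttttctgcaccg

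Most tubulin genes, Actb and the keratins Krt8 and Krt18 were higher. Of 34 measured genes of the cytoskeleton and epithelial stress, 13 were called higher and none lower, 7 of them stably, with a median of 0.37. Of the 10 tubulin genes 7 were called, and all 10 were above 0. Tubb6 read 8.34, 7.91 and 7.92 in HPNWT livers and 6.55, 6.58 and 6.56 in EGFP livers, 2.81-fold higher (1.49 log2, SE 0.14, limma adjusted p = 2.74e-05). Tuba1b read 10.20, 10.14 and 10.01 in HPNWT livers and 9.53, 9.53 and 9.41 in EGFP livers (0.63 log2, SE 0.12). Tubulin genes are alike in sequence, and how the probe sets tell them apart was not tested. Of 6 keratins of simple epithelia 2 were called. Krt8 and Krt18, the keratin pair of hepatocytes, were at 0.72 (SE 0.13) and 1.07 (SE 0.18). Krt18 read 10.14, 9.89 and 9.86 in HPNWT livers and 8.77, 8.75 and 9.15 in EGFP livers. Krt7 and Krt19, keratins of bile duct cells, lay under background in both groups (0.00 and 0.06) and were chosen after their values were seen. Actb read 11.28, 11.21 and 11.31 in HPNWT livers and 10.68, 10.75 and 10.69 in EGFP livers, 1.47-fold higher (limma adjusted p = 0.00205). Tpm4, a tropomyosin, was at 0.42, and did not pass in the fit on the 6 arrays (limma adjusted p = 0.0544). Of 24 hepatocyte junction genes 5 were called higher and none lower, with E-cadherin (Cdh1) at 0.96 (SE 0.19) the stable one. The count was 2 without EGFP day 1 replicate 1 and 10 without HPNWT day 4 replicate 3.

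Amino acid breakdown had the most falls of the 52 lists. Of 41 measured genes of amino acid catabolism and the urea cycle, 15 were called lower and none higher, 10 of them stably, and the median was −0.29. The falls lay in several routes. In methionine and sulfur amino acid use, Mat1a, the hepatic S-adenosylmethionine synthetase, read 11.17, 10.86 and 10.87 in HPNWT livers and 11.89, 11.71 and 11.93 in EGFP livers, 1.84-fold lower (−0.88 log2, SE 0.11, limma adjusted p = 0.000271). Cth, which makes cysteine, read 9.28, 9.07 and 9.30 in HPNWT livers and 9.99, 10.27 and 10.52 in EGFP livers (−1.04 log2, SE 0.14). Of 7 measured genes of that route 4 were called. In tyrosine breakdown 3 of 5 genes were called, among them Hpd (−0.47, SE 0.07) and Hgd (−0.52, SE 0.08), successive dioxygenases. Hpd read 11.13, 10.96 and 11.04 in HPNWT livers and 11.47, 11.54 and 11.56 in EGFP livers.

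Proline and ornithine enzymes were called in 3 of 4 cases. Prodh, proline dehydrogenase, read 7.99, 7.37 and 7.65 in HPNWT livers and 8.93, 8.84 and 9.13 in EGFP livers, 2.46-fold lower. Oat, ornithine aminotransferase, read 9.56, 8.70 and 9.34 in HPNWT livers and 10.08, 9.78 and 10.36 in EGFP livers (−0.87 log2, SE 0.17), and did not pass in the fit on the 6 arrays (limma adjusted p = 0.107). Kynu, the kynureninase of tryptophan breakdown, was at −0.90 (SE 0.13) and was 1 of 5 genes of that route to be called. Of 5 measured urea cycle genes 1 was called, and Cps1, its entry enzyme, was at −0.12 (limma adjusted p = 0.595) while Arg1 was at 0.15. Cps1 and Arg1 were chosen after their values were seen. The count of 15 was 10 without EGFP day 1 replicate 3, 10 in the fit with the negative-control covariate, and 9 in the fit on the 6 arrays.

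In other metabolic lists smaller numbers were called, beside 8.72% called higher and 4.19% lower among all genes above background. Drug metabolism genes were called lower in 6 of 45 cases and higher in 1, Cyp2b9, with a median of −0.24. Ugt2b34, a glucuronosyltransferase, was at −0.61 (SE 0.12) and Fmo1, a flavin monooxygenase, at −0.52 (SE 0.11). Ugt2b34 did not pass in the fit on the 6 arrays (limma adjusted p = 0.0765). The count of 7 was 3 without EGFP day 1 replicate 3 and 12 without HPNWT day 4 replicate 3. Of 19 bile acid and organic anion transporters 4 were called lower and 1 higher, and Slco1b2, a hepatic uptake transporter, read 9.21, 9.20 and 9.34 in HPNWT livers and 9.97, 10.23 and 10.25 in EGFP livers (−0.90 log2, SE 0.18). The count of 5 was 2 without HPNWT day 1 replicate 2 and 7 without HPNWT day 4 replicate 3, and 1 of the 4 falls was called in the fit on the 6 arrays and in that with the covariate. Cyp7a1, the rate-limiting enzyme of bile acid synthesis, read 7.67, 5.71 and 5.799 in HPNWT livers and 8.77, 7.18 and 8.09 in EGFP livers. The groups overlapped and it was not called (−1.62 log2, SE 0.69, limma adjusted p = 0.25). In the growth hormone axis 2 of 23 genes were called, both lower, and 4 without HPNWT day 1 replicate 3. These were Igfals and the receptor Ghr, which read 7.64, 7.72 and 7.86 in HPNWT livers and 8.19, 8.30 and 8.45 in EGFP livers, 1.49-fold lower. Igf1 was at −0.60 (SE 0.17, limma adjusted p = 0.0651). Keg1, a male-biased liver gene, was at −0.82 (SE 0.15). The gluconeogenic enzyme Fbp1 was at −0.47 (SE 0.08). In glycolysis and gluconeogenesis 2 of 32 genes were called, both lower, a share near that of all genes above background, and the count was 1 without EGFP day 1 replicate 3 and 6 without HPNWT day 1 replicate 3.

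**Figure D4:**
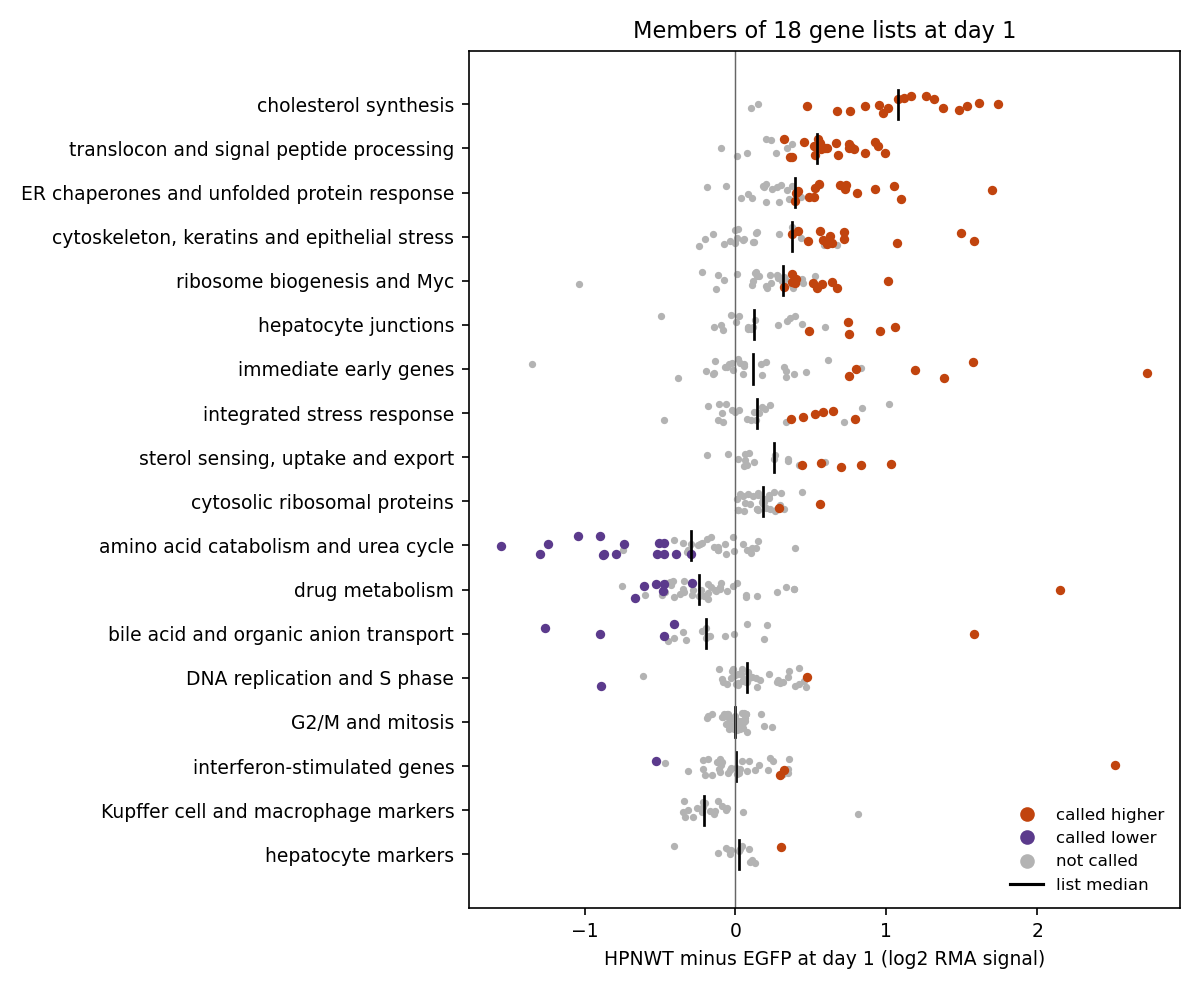
HPNWT minus EGFP difference at day 1 (log2 RMA signal, horizontal axis) of the measured members of 18 gene lists, 1 point per gene, with called genes in colour and the list median as a black bar. Cholesterol synthesis has a median of 1.08 and 17 of 19 members called higher. Amino acid catabolism has a median of −0.29 and 15 of 41 called lower. G2/M genes, whose mean signal lies under background, have none called.

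Of 32 immediate early genes 6 were called higher and none lower, 5 of them stably, with a median of 0.11. Fos read 7.06, 6.47 and 6.72 in HPNWT livers and 5.15, 5.21 and 5.16 in EGFP livers, where it lay under background (1.57 log2, SE 0.30, limma adjusted p = 0.00588). Ier2 read 7.79, 7.77 and 7.48 in HPNWT livers and 6.30, 6.34 and 6.24 in EGFP livers, 2.61-fold higher (SE 0.13 log2). Btg2, an antiproliferative gene that is also a p53 target, was 2.29-fold higher, and Junb was at 0.76 (SE 0.15). For all 6 called genes, EGFP replicate 2 was the EGFP array nearest the HPNWT livers. Egr1 stood at 2.73, while its relatives Egr2 (0.02) and Egr3 (−0.15) lay under background in both groups. Both were chosen after their values were seen.

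In the pathway that the series title names, the EGF receptor and ERK feedback lists had 1 and 2 called genes. Among all genes 3.17% were called higher and 1.53% lower, and among those above background 8.72% and 4.19%. Egfr itself read 10.97, 10.82 and 11.57 in HPNWT livers and 11.01, 10.91 and 10.70 in EGFP livers, so the groups overlapped (0.25 log2, SE 0.23, limma adjusted p = 0.713). Of 30 EGF receptors, ligands and adaptors 1 was called, the adaptor Shc1, with 8.20, 8.05 and 8.03 in HPNWT livers and 7.41, 7.63 and 7.51 in EGFP livers, 1.49-fold higher (limma adjusted p = 0.00537). Of 20 ERK feedback genes 2 were called higher. Dusp5, a phosphatase that inactivates nuclear ERK, read 6.91, 7.36 and 6.49 in HPNWT livers and 5.65, 5.29 and 5.32 in EGFP livers, where it lay under background (1.501 log2, SE 0.19, limma adjusted p = 0.00026). Hgf was at −0.25 with both groups near or under background (SE 0.15, limma adjusted p = 0.488). Its receptor Met was called at −0.31 (limma adjusted p = 0.0395), in 10 of the 18 fits with an array left out, with a highest limma adjusted p of 0.167. In the list of hepsin, HGF and related serine proteases, the coagulation protease F11 read 10.28, 10.39 and 10.11 in HPNWT livers and 8.84, 9.23 and 9.40 in EGFP livers, 2.16-fold higher. Tnfrsf1a, a TNF receptor, was at 0.54 (SE 0.10). Inhba, an activin subunit, and the TGF-beta receptor Tgfbr2 were at 0.91 and 0.94 (SE 0.17 and 0.14). Tgfbr2 read 8.001, 8.02 and 7.68 in HPNWT livers and 6.84, 6.90 and 7.15 in EGFP livers.

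Genes for making ribosomes and charging transfer RNA were higher in part. Of 40 ribosome biogenesis genes 12 were called higher and none lower, with a median of 0.31, and 3 were stable. These were Ltv1 (0.67, SE 0.09), Tsr1 (0.54, SE 0.09) and Mybbp1a (0.58, SE 0.11). Ltv1, an assembly factor of the small subunit, read 7.33, 7.38 and 6.99 in HPNWT livers and 6.48, 6.59 and 6.63 in EGFP livers. The count of 12 was 5 without HPNWT day 1 replicate 1, 18 without HPNWT day 1 replicate 3, and 4 in the fit on the 6 arrays. Myc, a driver of these genes, read 6.11, 6.15 and 6.98 in HPNWT livers and 7.68, 6.04 and 8.63 in EGFP livers and was not called (−1.04 log2, SE 0.56, limma adjusted p = 0.408). Ribosomal protein genes were above 0 in 34 of 34 cases, or 32 after repeated quantile normalization, with a median of 0.19 and 2 called. That count was 13 without HPNWT day 1 replicate 3, 1 without EGFP day 1 replicate 2 and 0 in the fit on the 6 arrays. Rpl3 was the stable one (0.56, SE 0.09) and did not pass in the fit on the 6 arrays (limma adjusted p = 0.0519). None of 31 proteasome genes was called in limma.

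In the integrated stress response 6 of 28 genes were called, all higher. Atf4, its transcription factor, read 7.70, 7.49 and 7.38 in HPNWT livers and 6.71, 6.92 and 7.003 in EGFP livers, 1.56-fold higher (limma adjusted p = 0.00766). The transfer RNA synthetases Cars and Nars were higher as well. Cars read 7.70, 7.62 and 7.82 in HPNWT livers and 6.68, 7.11 and 6.97 in EGFP livers (0.79 log2, SE 0.10), and Nars was at 0.45 (SE 0.07). Among antioxidant genes G6pdx, the entry enzyme of the pentose phosphate pathway, was at 1.03 (SE 0.15), Gss, glutathione synthetase, was 1.60-fold higher and Gclm, the modifier subunit of the first enzyme of glutathione synthesis, was 1.44-fold lower.

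Proteins of plasma and the factors that specify liver cells gave mixed directions. Among all genes above background 8.72% were called higher and 4.19% lower. Of 37 coagulation and complement genes 3 were called higher, a share near that of all such genes, and 3 lower. These 6 calls were 3 in all without HPNWT day 1 replicate 2, and 2 higher and 1 lower in the fit on the 6 arrays. Serpinf2, the inhibitor of plasmin, read 11.72, 11.55 and 11.56 in HPNWT livers and 10.97, 10.93 and 11.01 in EGFP livers, 1.56-fold higher (0.64 log2, SE 0.07, limma adjusted p = 4.1e-05). Mbl1, a mannose-binding lectin, was 1.76-fold lower. Foxa3, a liver forkhead factor, read 9.32, 8.92 and 8.81 in HPNWT livers and 8.04, 7.72 and 7.77 in EGFP livers, 2.25-fold higher. Of 21 pericentral genes 3 were called higher and 4 lower, and of 24 periportal genes 1 and 4. In the fit on the 6 arrays 4 pericentral and 2 periportal genes were called, and without EGFP day 1 replicate 3 also 2 periportal genes. Slc1a4, a neutral amino acid transporter, was at 1.42 (SE 0.25), and Lect2, a secreted Wnt target, at 0.75 (SE 0.14). Lect2 did not pass in the fit on the 6 arrays (limma adjusted p = 0.0691). Bdh1, which makes the ketone body hydroxybutyrate, was 1.80-fold higher.

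Cell cycle and interferon genes are given beside the 4.7% of all genes called at day 1. The share of all genes called at day 2 or day 4 is not given here, so the counts of those days have no such share beside them. Counts of calls at different days are not a test of a change between days, which follows in the next paragraph. Of 42 DNA replication genes 1 was called higher and 1 lower at day 1, against 17 and 0 at day 2 and 13 and 0 at day 4. Of the 42, 5 lay above background, and the 2 calls of day 1 were 8 without HPNWT day 1 replicate 3. None of 40 G2/M genes was called in limma at day 1, where the median was −0.01, against 34 at day 4, all higher. Their mean signal was 3.26 to 3.33 in the 6 arrays of day 1, under background. The lack of calls there does not show equal expression. Of 37 interferon-stimulated genes 3 were called higher and 1 lower at day 1, and 25 were called higher at day 4. The 4 calls of day 1 were 1 without EGFP day 1 replicate 2, 7 without HPNWT day 4 replicate 3, and 1 in the fit with the covariate. Cdkn1a, a cell cycle inhibitor, was at 0.36 and not called (SE 0.29, limma adjusted p = 0.665), with overlapping groups, and at −0.36 with array weights. Rbl2, a pocket protein that restrains G1, was at −0.39 (SE 0.08), and did not pass in the fit on the 6 arrays (limma adjusted p = 0.0851) or after median centring (0.0592).

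Whether the difference at day 1 differed from that of the other days was tested in the same fit, and the days share no arrays. No cluster passed for day 1 against day 2, where 2196 had an unadjusted p under 0.05. For day 1 against day 4, 38 clusters passed (0.0946%), 8 with the higher difference at day 1 (0.0199%) and 30 with the lower (0.0747%). They stand for 37 genes (0.102%). The balance turned without dim clusters (13 higher, 8 lower) and with array weights (604 and 335). In 29 of the 37 genes the difference was lower at day 1. Among these lower ones were 4 of the 40 G2/M genes and 4 of the 37 interferon-stimulated genes. The genes with the higher difference at day 1 included 2 of the 19 cholesterol enzymes. Dhcr7 had a difference of 1.26 at day 1, 1.01 at day 2 and 0.43 at day 4, and Mvk had 1.38, 0.54 and 0.07. The test of day 1 minus day 4 gave 0.84 (SE 0.15, limma adjusted p = 0.0422) for Dhcr7 and 1.303 (SE 0.22, limma adjusted p = 0.029) for Mvk. Ssr1 of the translocon had 0.86, 0.51 and 0.13 over the 3 days, a change of 0.73 (SE 0.12, limma adjusted p = 0.0219). These 3 calls were lost after median centring (limma adjusted p = 0.143 for Dhcr7, 0.104 for Mvk and 0.114 for Ssr1). The replicate block also ended them (limma adjusted p = 0.175, 0.108 and 0.111 in the same order). Of the 18 fits with an array left out, Dhcr7 was called in 5, Mvk in 10 and Ssr1 in 11. Akr1c18 went the other way, with 3.52 at day 1, 5.12 at day 2 and 5.79 at day 4. The lists as a whole had medians of 1.08, 0.56 and 0.04 for cholesterol synthesis, 0.54, 0.40 and 0.15 for the translocon, and −0.29, −0.23 and −0.18 for amino acid catabolism, at day 1, day 2 and day 4 in that order. These lists were not tested as wholes.

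**Figure D5:**
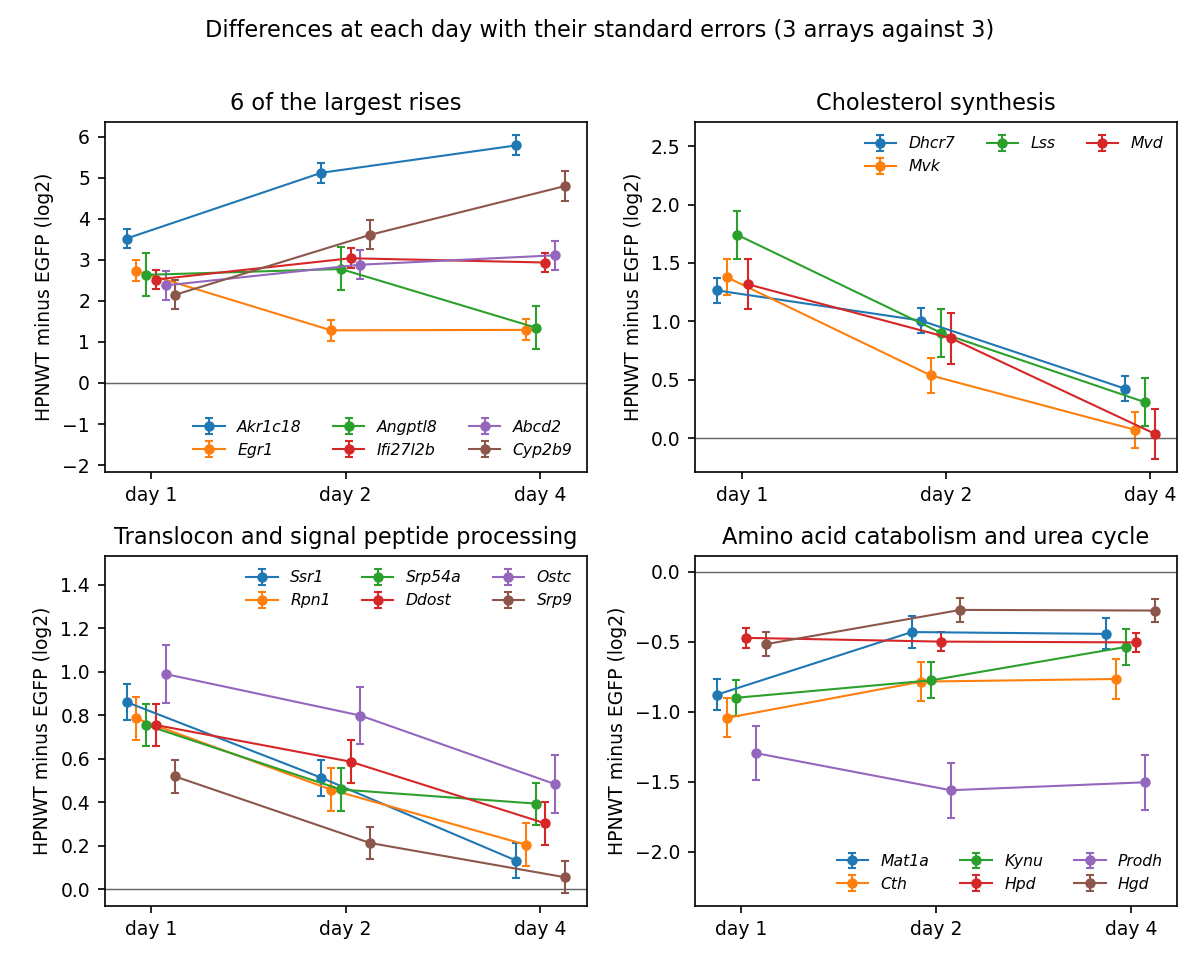
HPNWT minus EGFP difference (log2, vertical axis) at day 1, day 2 and day 4 for 6 of the largest rises of day 1 and for stable members of 3 lists with small p. Error bars are standard errors of the fit with 3 arrays against 3. Mvk stands at 1.38, 0.54 and 0.07 and Akr1c18 at 3.52, 5.12 and 5.79.

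Clusters typed as precursor microRNAs differed from the others in their direction. Of 1714 such clusters 116 (6.77%) were called lower and 3 higher, against 1.62% lower and 2.97% higher over all clusters. The called falls ran from −1.04 to −0.29 with a median of −0.54, and in 76 of them the mean signal lay above background. Their number was 28 without HPNWT day 1 replicate 1 and also without replicate 2, 321 without replicate 3, and 24 in the fit with the negative-control covariate. That median was lower in HPNWT arrays by the −0.17 given above, and its part in these falls was not tested beyond that fit. Precursors are far shorter than the transcripts of coding genes, and none is named here.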

How the data were processed

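Liver RNA was hybridised to the Affymetrix Mouse Transcriptome Array 1.0, 1 array per animal, per the labels. The deposited log2 values are RMA (robust multi-array average) values from the Transcriptome Analysis Console, as stated per the labels' descriptions, with no version given. Their deposited comparison table, from which the gene symbols came, holds averages on a wider log2 scale (2.31 to 19.93), a signed fold change used as a score, p-values and false discovery rates, per the file headers. The sources used here do not name the array's build.

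The fit, with limma 3.58.1 (lmFit and eBayes) under R 4.3.3, took all clusters that have a symbol, as 6 group means over 18 arrays without filter or covariate. Of 40161 clusters 3590 carry several symbols and are not named, and the brightest cluster stands for each of 36230 single symbols. Tests were 2-sided. The smallest p of an exact permutation test of 3 arrays against 3 is 0.1, so none was used. The number of arrays limits the precision. On simulated arrays with 50 changed clusters per size, 62% were recovered at a difference of 0.5, 94% at 1, 100% at 2 and 92% at −1. The simulated noise was independent between clusters and alike in all arrays. Fewer clusters were changed than were called in the data, so these shares are not the power of this experiment.

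The comparison, its members and the 52 gene lists (1337 genes) were chosen with earlier results of these data known, so lists are described and not tested. Named are Hpn, the 14 largest stable rises and falls, up to 6 stable members with the smallest p of each list, 15 fixed genes, genes whose difference changed between days, and up to 4 brightest markers of each cell type, 141 in all. Predicted genes, pseudogenes and small RNAs were not named, and a few genes that the rule names are not reported here. Srebf1 and Ccnd1 have no cluster of their own here. Replicate numbers were not taken as pairs in the main fit. The deviations of same-numbered day 1 arrays correlated at 0.03, 0.11 and −0.07, which shows no strong shared effect but cannot exclude pairing. Alternatives were the 6 arrays of day 1 alone, median centring, repeated quantile normalization, a filter on dim clusters, variance trend with robust moderation, array weights, a replicate block, the negative-control median as a covariate, single-symbol clusters, and each array left out.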

Additional observations from a re-analysis of the deposited data

Results flagged for a closer look

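For 6 named genes the HPNWT minus EGFP difference at day 1 differed from that at day 4 in limma, each by the test of the difference over 3 arrays per group. Akr1c18 had the smaller difference at day 1 (day 1 minus day 4 −2.27 log2, SE 0.34, limma adjusted p = 0.0129). It was called in 17 of the 18 fits with an array left out, the exception being without EGFP day 4 replicate 3 (limma adjusted p = 0.0578). The other 5 had the larger one at day 1, and none of them was called after median centring or with the replicate block. The cholesterol enzymes were Mvk, with a change of 1.303 (SE 0.22, limma adjusted p = 0.029), and Dhcr7, with 0.84 (SE 0.15, limma adjusted p = 0.0422). Ssr1 of the translocon changed by 0.73 (SE 0.12, limma adjusted p = 0.0219). Slc16a6, a monocarboxylate transporter family member, changed by 0.95 (SE 0.17, limma adjusted p = 0.0466). It read 7.61, 7.28 and 7.75 in HPNWT livers and 6.67, 6.85 and 6.54 in EGFP livers at day 1. Snrpd3, a core protein of the spliceosome, changed by 0.51 (SE 0.09, limma adjusted p = 0.0322). Its differences were 0.33 at day 1, 0.08 at day 2 and −0.18 at day 4, and in the fit on the 6 arrays of day 1 it did not pass (limma adjusted p = 0.0799). With an array left out, Slc16a6 was called in 4 and Snrpd3 in 7 of the 18 fits.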

How the results depend on the processing

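The count of 1843 clusters called at day 1 was 723 in the fit on the 6 arrays, 1137 after median centring, 1097 with the negative-control covariate, 1064 with the replicate block and 8116 with array weights. Leaving out single arrays gave 858 to 2993. The lowest was without HPNWT day 1 replicate 2 and the highest without HPNWT day 1 replicate 3. It was 953 without HPNWT day 1 replicate 1, 1015 and 1078 without EGFP day 1 replicate 2 and 3, 1192 without EGFP day 1 replicate 1 and 2696 without HPNWT day 4 replicate 3. Against day 2 the count of 0 was 387 with array weights, and 0 to 3 with single arrays left out, 1 without HPNWT day 2 replicate 2 and 3 without HPNWT day 4 replicate 3. Against day 4 the count of 38 (8 higher, 30 lower) was 939 with array weights (604 and 335), 16 after median centring (1 and 15), 21 without dim clusters (13 and 8) and 15 with the replicate block (0 and 15), and 17 to 137 with single arrays left out, the highest without HPNWT day 4 replicate 3. The replicate block ended the day 1 calls of Srebf2, Hspa5 and Met among named genes, and the day 1 against day 4 calls of Mvk, Dhcr7, Ssr1, Slc16a6 and Snrpd3 (limma adjusted p 0.108 to 0.194).

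Signs turned for genes that were not called, with reported differences near 0 except for Cdkn1a (0.36) and Ehd3 (0.20). With the covariate Hpn was at 0.076, Eng at 0.11, Colec11 at 0.13, Rgs5 at 0.12, Cd8b1 at −0.033 and Camp at −0.0042. After median centring Dnase1l3 was at 0.017, Colec11 at 0.027 and Rgs5 at 0.012. Array weights put Clec4g at −0.032, Spp1 at −0.035 and Cdkn1a at −0.36, and quantile normalization put Clec4g at −0.00042. With 1 array left out the ranges were −0.17 to 0.017 for Hpn, −0.14 to 0.049 for Alb, −0.052 to 0.21 for Aqp1, −0.023 to 0.078 for Camp, −0.098 to 0.058 for Colec11, −0.093 to 0.071 for Dnase1l3, −0.038 to 0.33 for Ehd3, −0.078 to 0.012 for Eng, −0.16 to 0.12 for Rgs5, −0.084 to 0.020 for Slc4a1 and −0.13 to 0.14 for Spp1. The causes were not tested. Genes under the level of 6.16 have no reliable order.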

Other observations

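The authors' deposited list of changed genes for day 1 holds 787 rows, 470 with a positive and 317 with a negative fold change. Its smallest absolute fold change is 2.01, its largest p is 0.0487 and its largest false discovery rate is 0.3126, and 618 rows have a false discovery rate under 0.05. In the authors' deposited table of all clusters 2184 clusters with a symbol have a false discovery rate under 0.05, 1408 higher and 776 lower. The limma fit called 1677 of them, each with the same sign.

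The array that lay nearest the other group differed between rises and falls. For the 113 stable falls, HPNWT day 1 replicate 1 was nearest the EGFP livers in 57 and replicate 3 in 39, and EGFP day 1 replicate 1 was nearest the HPNWT livers in 65 and replicate 3 in 10. For the 15 called falls of amino acid catabolism, HPNWT replicate 1 was nearest in 10 and replicate 3 in 5.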
